A study of Homo sapiens with 9 samples.

Results

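Serine, one-carbon and asparagine synthesis was followed through 10 genes, PHGDH, PSAT1, PSPH, SHMT1, SHMT2, MTHFD1, MTHFD1L, MTHFD2, ASNS and CTH, in undifferentiated Caco-2 cells (uCaco-2), a proliferating form of a human colon adenocarcinoma line. The genes were chosen by their role in these pathways and matched by symbol. All 10 were found among the 60591 symbols of the count table, and all 10 were among the 15944 genes with enough counts to be tested. Control cells received neither activator, and the treated cells received either 300 μM cobalt (II) chloride (CoCl2) or 5 μM of an oxyquinoline derivative (OD), compounds used to stabilise HIF by acting on the prolyl hydroxylases that mark it for degradation. All cells, controls included, were kept for 24 h, and each condition had 3 biological replicates. DMSO was taken as 0.5% in every condition. The dilution of the OD stock to its dose would by itself bring less DMSO than that. Whether OD and control cells had equal DMSO is therefore uncertain, and the part of DMSO in the OD comparisons was not tested. The cells are a tumour-derived line, and the doses of CoCl2 and OD differ, so that a comparison of both treatments is one of 2 conditions and not of 2 compounds at a matched dose.

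Serine is made from a glycolytic intermediate by PHGDH, PSAT1 and PSPH in turn. SHMT1 in the cytosol and SHMT2 in mitochondria split serine into glycine and a one-carbon unit carried by folate. MTHFD2 and MTHFD1L carry that unit to formate in mitochondria, and MTHFD1 handles the same chemistry in the cytosol, where the units feed purine, thymidylate and methionine synthesis. ASNS makes asparagine from aspartate and glutamine, and CTH, cystathionine gamma-lyase, releases cysteine from cystathionine at the end of transsulfuration. Several of these genes are textbook targets of ATF4, the transcription factor of the integrated stress response.

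The promoter windows of RefSeq on GRCh38.p14 cover 250 bases before to 50 bases after an annotated start. They were held for 8 of the 10 genes in 12 windows, and PSPH and SHMT2 had no entry. Each window was searched on both strands for a C/EBP-ATF response element (TGATGNAA), the core of a HIF site (ACGTG), an E-box (CACGTG, which contains the HIF core) and the core of an antioxidant response element (TGACNNNGC). The 4 windows below were chosen because each holds at least 1 of these matches, and together they show every gene with a match. The letters in capitals are the matches.
ASNS: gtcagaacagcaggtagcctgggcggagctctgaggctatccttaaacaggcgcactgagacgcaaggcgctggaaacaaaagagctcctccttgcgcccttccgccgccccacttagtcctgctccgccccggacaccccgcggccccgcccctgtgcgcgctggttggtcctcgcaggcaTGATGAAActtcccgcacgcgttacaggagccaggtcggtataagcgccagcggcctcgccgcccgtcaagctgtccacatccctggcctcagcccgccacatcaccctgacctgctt
MTHFD1L: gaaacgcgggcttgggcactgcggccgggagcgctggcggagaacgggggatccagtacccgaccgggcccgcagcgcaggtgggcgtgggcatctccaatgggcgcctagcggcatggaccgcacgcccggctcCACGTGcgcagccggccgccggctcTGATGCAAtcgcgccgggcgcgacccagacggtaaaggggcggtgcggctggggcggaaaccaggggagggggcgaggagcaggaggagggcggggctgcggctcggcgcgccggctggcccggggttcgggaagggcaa
MTHFD2: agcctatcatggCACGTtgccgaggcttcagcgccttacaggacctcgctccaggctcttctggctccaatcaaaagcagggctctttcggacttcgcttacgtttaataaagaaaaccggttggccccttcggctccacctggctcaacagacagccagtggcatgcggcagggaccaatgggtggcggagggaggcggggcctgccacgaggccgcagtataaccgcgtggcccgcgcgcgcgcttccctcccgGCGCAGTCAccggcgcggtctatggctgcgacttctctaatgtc
MTHFD1: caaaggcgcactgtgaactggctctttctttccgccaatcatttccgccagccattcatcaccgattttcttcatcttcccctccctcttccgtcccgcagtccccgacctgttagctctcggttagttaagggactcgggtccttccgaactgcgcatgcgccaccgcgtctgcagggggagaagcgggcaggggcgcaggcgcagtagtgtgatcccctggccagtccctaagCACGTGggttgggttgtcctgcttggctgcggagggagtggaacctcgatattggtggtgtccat

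The ASNS window lies at chr7:97872359-97872658 on the minus strand, that of MTHFD1L at chr6:150866197-150866496, that of MTHFD2 at chr2:74198365-74198664 and that of MTHFD1 at chr14:64388103-64388402, the latter 3 on the plus strand. The C/EBP-ATF response element was found in windows of 2 genes, ASNS and MTHFD1L, beginning 68 and 90 bases before the start in the windows shown. Of 35116 windows of all genes, 3.62% hold it. The HIF core was found in MTHFD1, MTHFD1L and MTHFD2, against 21.4% of all windows. In MTHFD1 and MTHFD1L it lies within an E-box, a motif held by 7.26% of all windows. The antioxidant core was found in MTHFD2 alone among the 8 genes, 6 bases after the start, against 13.3% of all windows. No match was found in the windows of PHGDH, PSAT1, SHMT1 and CTH. The shares are per window and the matches are named by gene, so they are unlike measures, and a gene with several windows has more chances of a match. Of the 12 windows, 4 hold the C/EBP-ATF element, 5 the HIF core, 4 the E-box and 1 the antioxidant core. Some windows of MTHFD1L overlap and hold the same matches. These matches are letters in a window and no measure of binding.

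The 9 libraries held 15998136 to 24209427 counts each. Levels are given in CPM, the counts of a gene relative to the effective total of its library after TMM scaling in edgeR, which corrects for differences in library composition. The TMM factors were 1.108 to 1.116 in controls, 0.770 to 0.795 under CoCl2 and 1.138 to 1.15 under OD. The choice bears on CoCl2, where the median log2 fold change of all tested genes against control was -0.049 with TMM and -0.554 with library size alone. Expression of 8 epithelial markers summed to 11100 to 11600 CPM in controls, 13300 to 14300 under CoCl2 and 10600 to 11100 under OD. Expression of 8 markers of immune, endothelial and stromal cells summed to 24.9 to 31.3 CPM over all libraries. Among the latter, PTPRC had 0 to 3 counts, CD3E 0 to 6 and DCN 0 to 2, and COL1A1 was highest at 9.33 to 22.4 CPM. KRT8 and KRT18 carried most of the epithelial sum. VIL1, an enterocyte marker of that list, went the other way under CoCl2, at 596 to 632 CPM in controls and 108 to 119 under CoCl2. Under OD it stood at 445 to 460 CPM, lower like the sum. CDH1, HNF4A and CDX2 were higher under OD than in controls, CDH1 at 1400 to 1450 CPM against 954 to 1010. The part of these marker differences in the results below was not tested. Fewer cells and less RNA per cell cannot be told apart in such bulk counts.

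A gene was called changed at a Benjamini-Hochberg adjusted p under 0.05 from the quasi-likelihood test of edgeR, together with a log2 fold change above 1 in size. With CoCl2, 1 of the 10 genes was called higher and 4 were called lower, against 19.9% and 23.4% of all tested genes. CTH rose, PSPH, SHMT1, MTHFD1 and MTHFD1L fell, and PHGDH, PSAT1, SHMT2, MTHFD2 and ASNS were not called. With OD, 3 genes were called higher (MTHFD2, ASNS and CTH) and none lower, against 9.09% and 4.16% of all tested genes. All 10 genes passed the adjusted p alone in each of these comparisons, a threshold that 83.2% of all genes passed with CoCl2 and 65.6% with OD. With library size alone in place of TMM, ASNS with CoCl2 (adjusted p = 0.333) and SHMT1 with OD (adjusted p = 0.135) did not pass it. The libraries of treated and control cells did not overlap for any of the 10 genes, which held for 83.4% of all tested genes with CoCl2 and 68% with OD. The median log2 fold change of the 10 genes was -0.69 with CoCl2 and 0.70 with OD, beside -0.049 and -0.0105 for all tested genes.

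**Figure D1:**
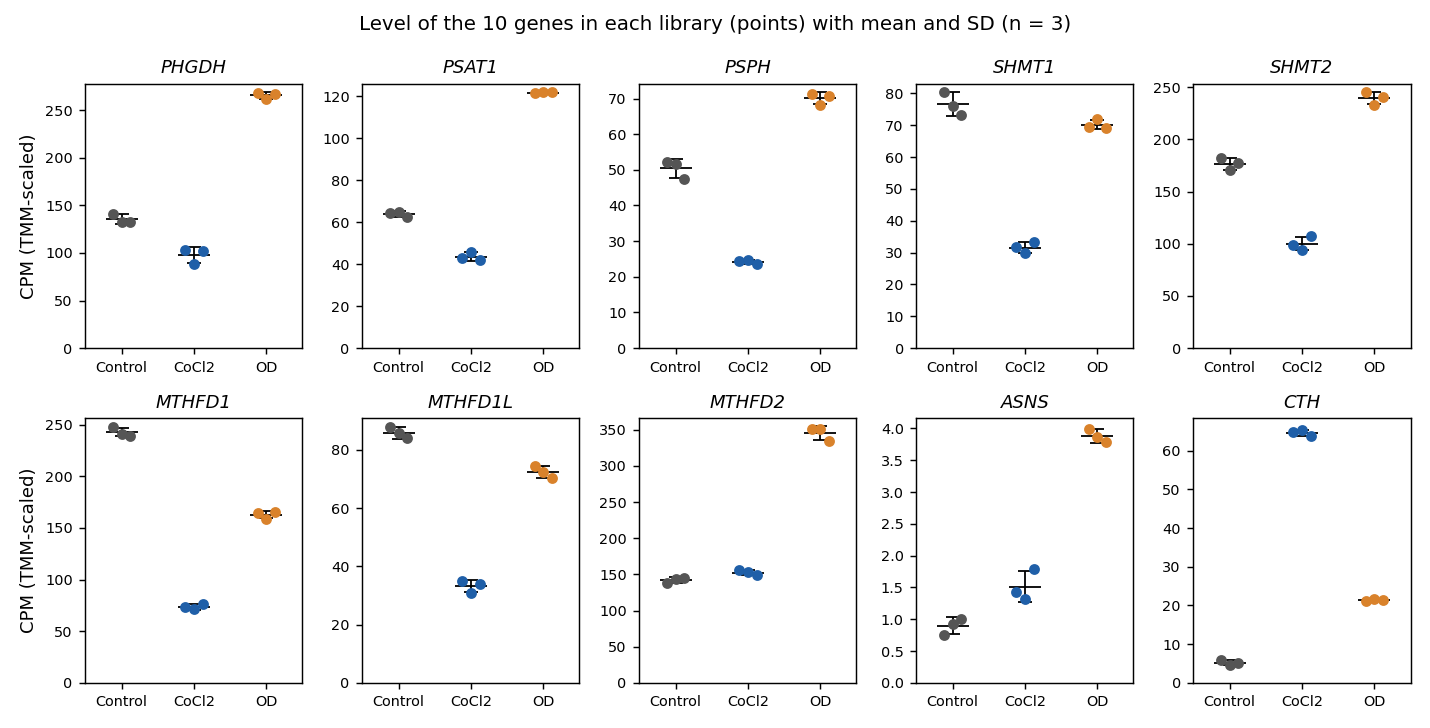
Level of each of the 10 genes in CPM scaled by TMM (linear axis from 0) in control, CoCl2 and OD cells. Points are libraries, and bars are the mean and SD of 3. In every panel the 3 conditions occupy separate ranges. The CoCl2 libraries lie lowest for PHGDH, PSAT1, PSPH, SHMT1, SHMT2, MTHFD1 and MTHFD1L and highest for CTH, where they reach 63.82 to 65.24 CPM against 4.71 to 5.86 in control cells.

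The enzymes that make serine were lower with CoCl2 and higher with OD, although only PSPH with CoCl2 passed the fold threshold. PHGDH, the first enzyme of the pathway, had 141.4, 132.8 and 132.6 CPM in controls, 103, 88.37 and 101.8 under CoCl2 and 267.9, 261.6 and 266.8 under OD. Its 3 conditions did not overlap, with OD above control and CoCl2 below. The log2 fold change was -0.47 (SE 0.048, adjusted p = 9.19e-14) with CoCl2 and 0.97 (SE 0.045, adjusted p = 1.11e-28) with OD, a 1.96-fold higher level with a 95% confidence interval of 1.84 to 2.08. Neither was called, and without control replicate 1 the OD value became 1.01 and passed the fold threshold. With library size alone the CoCl2 value was -0.97 (adjusted p = 4.69e-24), still not called, and the OD value 1.01.

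PSAT1, the aminotransferase of the pathway, followed the same order of conditions. It had 64.51, 65.01 and 62.43 CPM in controls, 43.17, 45.81 and 41.85 under CoCl2 and 121.5, 122.1 and 121.9 under OD. The log2 fold change was -0.56 (SE 0.054, adjusted p = 1.6e-14) with CoCl2 and 0.93 (SE 0.048, adjusted p = 4.64e-26) with OD, and neither was called.

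PSPH, the phosphatase that releases serine, fell with CoCl2. Its level was 52.19, 51.57 and 47.45 CPM in controls, 24.45, 24.69 and 23.49 under CoCl2 and 71.34, 68.27 and 70.77 under OD. The fall was 1.06 on the log2 scale, or 2.09-fold (SE 0.063, adjusted p = 4.19e-24), but the adjusted p was 0.155 when glmTreat tested the change against the fold threshold itself. With OD the log2 fold change was 0.48 (SE 0.053, adjusted p = 5.42e-12), below that threshold. Summed over PHGDH, PSAT1 and PSPH, the level was 250 ± 7.84 CPM (SD, n = 3) in controls, 165.5 ± 6.04 under CoCl2 and 457.4 ± 4.77 under OD.

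The cytosolic enzymes of one-carbon metabolism fell with CoCl2. SHMT1, the cytosolic serine hydroxymethyltransferase, had 80.54, 76.18 and 73.2 CPM in controls, 31.66, 29.87 and 33.19 under CoCl2 and 69.48, 71.86 and 69.28 under OD. It fell 2.42-fold with CoCl2 (log2 fold change -1.27, SE 0.058, adjusted p = 7.19e-30). The OD libraries lay just under those of control cells, with a log2 fold change of -0.13 (SE 0.051, adjusted p = 0.0257). With library size alone this OD value was -0.086 (adjusted p = 0.135).

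MTHFD1, the cytosolic enzyme that joins the folate pool to formate, had the largest fall among the 10 genes. It had 247.2, 241.2 and 239.3 CPM in controls, 73.65, 71.04 and 76.56 under CoCl2 and 164.8, 158.8 and 165 under OD. With CoCl2 it fell 3.28-fold (log2 fold change -1.71, SE 0.045, adjusted p = 1.61e-42). With OD the log2 fold change was -0.57 (SE 0.041, adjusted p = 2.26e-19), the lowest of the 10 with this treatment but not called.

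The mitochondrial enzymes were less alike. SHMT2, the mitochondrial hydroxymethyltransferase, had 181.8, 170.6 and 177 CPM in controls, 98.97, 94.18 and 107 under CoCl2 and 245, 233 and 240.9 under OD. Its log2 fold change was -0.81 (SE 0.046, adjusted p = 4.98e-25) with CoCl2 and 0.44 (SE 0.043, adjusted p = 4.37e-14) with OD, both below the fold threshold. With library size alone in place of TMM, the CoCl2 values of SHMT2 and PSAT1 became -1.32 and -1.06, which would bring the genes called lower from 4 to 6. Over all tested genes that scaling called 11.5% higher and 36.6% lower with CoCl2.

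MTHFD1L, the mitochondrial enzyme that releases formate, fell with CoCl2. Its level was 87.96, 85.84 and 83.91 CPM in controls, 35.02, 30.95 and 33.98 under CoCl2 and 74.52, 72.48 and 70.34 under OD. The fall with CoCl2 was 2.57-fold (log2 fold change -1.36, SE 0.056, adjusted p = 5.89e-32). OD libraries lay nearer to control, at a log2 fold change of -0.25 (SE 0.050, adjusted p = 1.81e-05), not called. The window of this gene printed above holds the C/EBP-ATF element. In its overlapping windows the same element lies between 129 bases before and 24 bases after the start. Another of its windows, at chr6:151006758-151007057, holds none of the motifs.

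MTHFD2, the mitochondrial dehydrogenase and cyclohydrolase that acts before MTHFD1L, rose with OD. It had 137.6, 144.3 and 144.8 CPM in controls, 155.6, 153 and 148.9 under CoCl2 and 351.1, 350.9 and 334.6 under OD. The rise was 2.43-fold (log2 fold change 1.28, SE 0.041, adjusted p = 1.05e-36). With CoCl2 the log2 fold change was 0.10 (SE 0.043, adjusted p = 0.029), and its direction depended on the scaling, being -0.41 (adjusted p = 2.04e-12) with library size alone. Summed over the 5 one-carbon enzymes, the level was 723.8 ± 9.74 CPM in controls, 391.2 ± 10.8 under CoCl2 and 890.7 ± 12.8 under OD (SD, n = 3).

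CTH rose most with CoCl2. It had 109, 96 and 90 counts in controls, 1040, 843 and 1217 under CoCl2 and 468, 488 and 403 under OD, or 5.86, 4.71 and 5.05 CPM, 64.7, 65.24 and 63.82 CPM, and 21.25, 21.66 and 21.46 CPM. Every CoCl2 library lay above every OD library, and these above every control library. The rise was 12.4-fold with CoCl2 (95% confidence interval 11.1 to 13.9, log2 fold change 3.63, SE 0.080, adjusted p = 1.04e-46). With OD it was 4.13-fold (interval 3.64 to 4.68, log2 fold change 2.05, SE 0.091, adjusted p = 2.08e-29). With library size alone the log2 fold changes were 3.13 with CoCl2 (adjusted p = 5.18e-34) and 2.09 with OD (adjusted p = 1.79e-24). The CoCl2 value then lies below its TMM interval, whose lower end is 3.47 on the log2 scale. The interval does not cover the choice of scaling.

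ASNS was the least expressed of the 10 genes. It had 14, 19 and 18 counts in controls, 23, 17 and 34 under CoCl2 and 88, 87 and 71 under OD, which are 0.753, 0.932 and 1.01 CPM, 1.43, 1.32 and 1.78 CPM, and 3.996, 3.86 and 3.78 CPM. It rose 4.30-fold with OD (95% confidence interval 3.23 to 5.73, SE 0.21 on the log2 scale, adjusted p = 6.2e-14). With CoCl2 the log2 fold change was 0.77 with a wider error (SE 0.26, adjusted p = 0.00624), and was not called. With library size alone this value was 0.27 (adjusted p = 0.333). The low counts have a limit beside the depth, since 99.5% of the bases of its main transcript (MANE Select) also belong to a long non-coding RNA gene on the same strand, ENSG00000284707. This overlap is that of GENCODE release 44, a later release than the one used for counting, and whether that annotation held the same overlap was not checked. How reads that match both were counted is not given in the sources used here, so its level and its changes are uncertain to that extent.

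**Figure D2:**
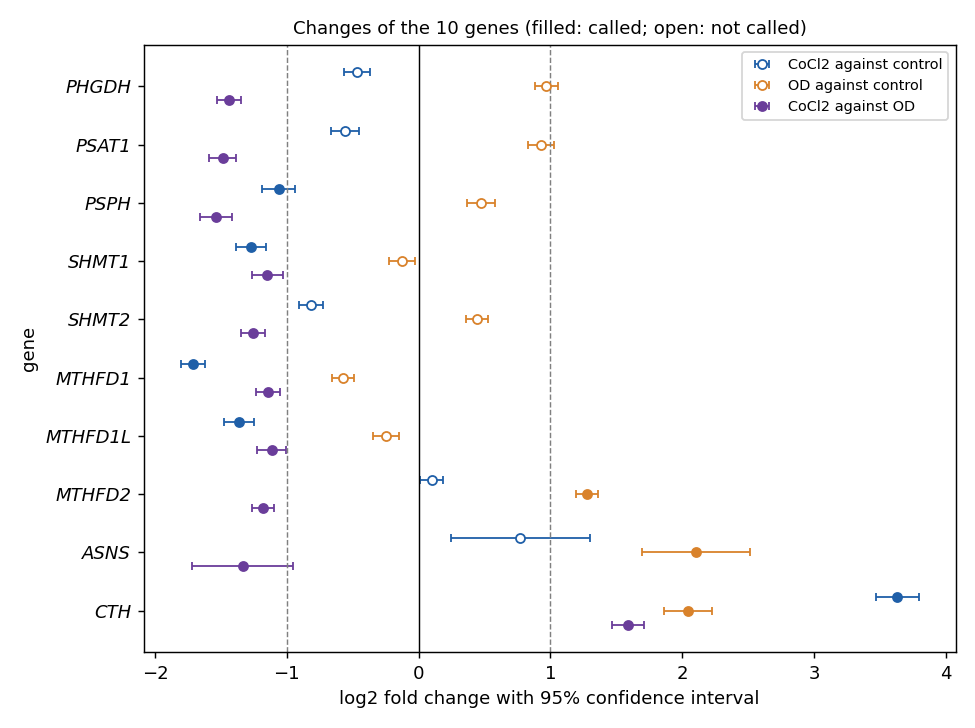
Log2 fold change (horizontal axis) of the 10 genes (rows) in the 3 comparisons of conditions, with 95% confidence intervals from edgeR. Filled points were called and dashed lines mark the fold threshold at a log2 fold change of 1 in either direction. CTH lies to the right in all 3 comparisons, and the other 9 genes lie left of the threshold for CoCl2 against OD, between -1.12 and -1.54. MTHFD2 with CoCl2 (0.10) changes sign with library size alone.

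Compared directly, CoCl2 cells had lower levels than OD cells for 9 of the 10 genes, all called. CTH alone was called higher. Of all tested genes, 23.8% were called lower and 17.5% higher in this comparison. All 10 passed the adjusted p, as did 83.5% of all genes, and the libraries of both treatments were apart for all 10 and for 83.8% of all genes. The median log2 fold change of the 10 genes was -1.22, beside -0.0535 for all tested genes.

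The 9 genes lower with CoCl2 than with OD lay in a narrow range, from -1.12 for MTHFD1L to -1.54 for PSPH. PHGDH differed by -1.44 (SE 0.046, adjusted p = 1.19e-37), PSAT1 by -1.49 (SE 0.051, adjusted p = 5.17e-36) and MTHFD2 by -1.18 (SE 0.042, adjusted p = 1.27e-35). CTH was 3.01-fold higher with CoCl2 than with OD (95% confidence interval 2.76 to 3.28, log2 fold change 1.59, SE 0.062, adjusted p = 2.6e-33). With library size alone, the median of all tested genes in this comparison was -0.598, and 8.47% of all genes were called higher and 37.8% lower. The count of 9 lower and 1 higher among the 10 genes was the same under that scaling. The CTH value was smaller there, at 1.04 (adjusted p = 4.2e-20), just above the fold threshold.

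Ratios of counts within a library do not depend on the scaling, and were used to compare compartments and partners. Each was tested by an exact two-sided permutation test over libraries, whose smallest p with 3 against 3 is 0.1, so that none could pass 0.05. There were 15 such tests, 5 ratios in 3 comparisons, and a p of 0.1 became 0.136 after Benjamini-Hochberg adjustment over them. SHMT2 over SHMT1, the mitochondrial over the cytosolic enzyme, was 2.31 ± 0.098 (SD, n = 3) in controls, 3.17 ± 0.051 under CoCl2 and 3.42 ± 0.15 under OD. The libraries of both treatments lay above those of control cells (exact p = 0.1 for each).

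MTHFD2 over MTHFD1 moved furthest with both treatments. It was 0.557, 0.598 and 0.605 in controls, 2.11, 2.15 and 1.95 under CoCl2 and 2.13, 2.21 and 2.03 under OD. In control cells MTHFD1 had more counts than MTHFD2, and in both treatments the reverse held in every library. The ratio was 3.53-fold higher with CoCl2 and 3.62-fold higher with OD (exact p = 0.1 for each), while the treatments overlapped one another (log2 difference -0.036, exact p = 0.6, adjusted p = 0.692). With CoCl2 the log2 fold changes behind this ratio were -1.71 for MTHFD1 and 0.10 for MTHFD2, and with OD they were -0.57 and 1.28, of which the first was not called. The small CoCl2 value of MTHFD2 changes sign with library size alone.

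MTHFD1L over MTHFD1, which compares the formate-linked enzymes of mitochondria and cytosol, was 0.354 ± 0.0030 in controls, 0.452 ± 0.021 under CoCl2 and 0.445 ± 0.016 under OD (SD, n = 3). Both treatments lay above control (exact p = 0.1 for each) and overlapped one another (exact p = 0.7). MTHFD2 over its paralog MTHFD2L was 34.7 ± 2.1 in controls, 38.6 ± 2.9 under CoCl2 and 124 ± 7.5 under OD. It was apart from control with OD, 3.58-fold higher (exact p = 0.1), and overlapped control with CoCl2 (exact p = 0.2). MTHFD2L itself was not called with either treatment, at 4.11 ± 0.31, 3.97 ± 0.21 and 2.79 ± 0.20 CPM in control, CoCl2 and OD cells. ASNS over PHGDH was 0.00665 ± 0.0012 in controls, 0.0154 ± 0.0019 under CoCl2 and 0.0146 ± 0.00039 under OD (SD, n = 3).

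**Figure D3:**
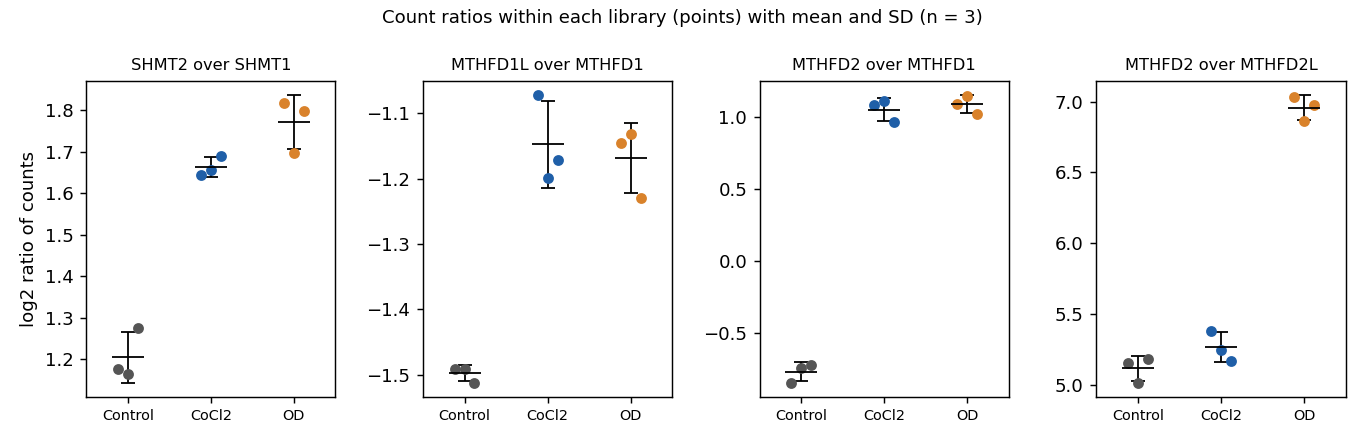
Log2 ratio of counts (vertical axes, which differ between panels and do not start at 0) of SHMT2 over SHMT1, MTHFD1L over MTHFD1, MTHFD2 over MTHFD1 and MTHFD2 over MTHFD2L. Points are libraries of control, CoCl2 and OD cells, and bars are the mean and SD of 3. MTHFD2 over MTHFD1 lies near 0.587 on the linear scale in controls and near 2.07 and 2.12 under CoCl2 and OD, while MTHFD2 over MTHFD2L stands apart under OD only.

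Levels were set in order between genes only per kilobase of the main transcript (MANE Select). In control cells SHMT2 came first at 81.8 CPM per kb, followed by MTHFD1 at 76.9 and PHGDH at 72.7. MTHFD2 (32.3), SHMT1 (30.3) and PSAT1 (29.0) came next, and the libraries of neighbours in this group overlapped, as did those of PSPH (25.5) and MTHFD1L (24.9). CTH at 2.49 and ASNS at 0.377 came last. The place of ASNS in each condition is uncertain, since nearly all of that transcript is shared with another gene, as given above.

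With CoCl2 the order began with PHGDH at 52.4 CPM per kb and SHMT2 at 46.4, which overlapped, then MTHFD2 at 34.6 and CTH at 30.9. CTH thus stood above MTHFD1, at 23.4. With OD PHGDH came first at 142 CPM per kb, then SHMT2 at 111, MTHFD2 at 78.5 and PSAT1 at 55.2, with CTH at 10.3 and ASNS at 1.63 the lowest. The order depends on the length used. With the length of all annotated exons, chosen after seeing the data, SHMT2 still led in controls (38.4), but CTH led under CoCl2 (26.8) and PSAT1 under OD (55.2).

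On GRCh38 as annotated by GENCODE release 44, the serine enzymes lie at chr1:119648411-119744218 (PHGDH), chr9:78297125-78330093 (PSAT1) and chr7:56011051-56051604 (PSPH). The hydroxymethyltransferases lie at chr17:18327860-18363563 (SHMT1) and chr12:57229573-57234935 (SHMT2). The other one-carbon enzymes lie at chr14:64388031-64463457 (MTHFD1), chr6:150865679-151101887 (MTHFD1L) and chr2:74186172-74217565 (MTHFD2), and ASNS and CTH at chr7:97851677-97872542 and chr1:70411218-70439851. PSPH, SHMT1 and ASNS are on the minus strand and the others on the plus strand. Exons on the opposite strand overlap 36.8% of the main transcript of MTHFD2, 14.6% of that of MTHFD1, 7.28% of SHMT1 and 6.21% of SHMT2. The libraries were made with a stranded kit, but the strand setting of the counting is not given in the sources used here. The table lists 18 rows under pseudogene symbols of these genes, none above 15 counts in a library, while the 9 genes other than ASNS had at least 90.

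Of 12 further genes of the folate cycle, 10 were tested. With CoCl2, 5 fell and none rose, with a median log2 fold change of -1.19, and with OD none was called and the median was -0.22. Of all tested genes, 23.4% fell and 19.9% rose with CoCl2, and 4.16% fell and 9.09% rose with OD, the background for this and the next lists. SLC19A1, the reduced folate carrier, fell from 47.7 ± 2.8 CPM to 5.38 ± 0.20 with CoCl2 (log2 fold change -3.14, SE 0.087, adjusted p = 1.92e-41). TYMS, the thymidylate synthase of nucleotide synthesis, fell by 2.05 on the log2 scale (adjusted p = 1.54e-36). Exons on the opposite strand overlap 47.9% of its exon bases.

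ALDH1L2, a mitochondrial enzyme that oxidises formyl-folate, fell by 1.46 with CoCl2 (adjusted p = 1.19e-15). Under OD it reached a log2 fold change of 1.00 (adjusted p = 3.15e-15), just below the fold threshold. MTFMT, which formylates the initiator methionine of mitochondria, fell by 1.41 (adjusted p = 3.75e-20). SLC25A32, the mitochondrial folate carrier, had at most 4 counts in a library and was not tested. Of its exon bases, 69.7% are shared with other genes on the same strand. How reads matching several genes were counted is not given in the sources used here, so the level of SLC25A32 is uncertain. With library size alone, 7 of the 10 tested folate genes were called lower with CoCl2, against 36.6% of all tested genes, and 1, ALDH1L2, was called higher with OD, against 9.73%.

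Among 6 tested of 8 listed enzymes of glycine cleavage and other serine and glycine reactions, 4 fell with CoCl2 and none rose, with a median of -1.46, beside 23.4% of all tested genes that fell. With OD none was called. GLDC, the decarboxylase of the glycine cleavage system, fell by 1.41 (SE 0.043, adjusted p = 4.72e-39). GCSH, a carrier protein of that system, fell by 1.53 (SE 0.27, adjusted p = 4.81e-07). Its counts were low, 31, 50 and 43 in controls and 13, 11 and 12 under CoCl2. Of its exon bases, 12.1% are shared with other genes on the same strand. GCAT and SDSL fell by 1.51 and 3.07 (adjusted p = 5.95e-21 and 3.04e-11), SDSL from 24 to 48 counts in control libraries to 2 to 5.

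In the methionine cycle and transsulfuration, 8 of 12 listed genes were tested, 2 fell with CoCl2 and none rose, and with OD none was called. The share that fell is near the 23.4% of all tested genes. The medians were -0.26 and 0.034. CBS, which makes the cystathionine that CTH cleaves, fell with CoCl2, where CTH rose. It had 45, 47 and 47 counts in controls, 7, 2 and 6 under CoCl2 and 92, 109 and 79 under OD. The CoCl2 libraries lay far below the control libraries and the OD libraries above them. Its log2 fold change was -2.95 (SE 0.31, adjusted p = 2.41e-13) with CoCl2 and 0.85 (SE 0.16, adjusted p = 5.14e-06, not called) with OD. A near-identical copy of this gene, CBSL, is annotated and listed separately, so the counts of CBS are uncertain. MPST, a sulfurtransferase of cysteine breakdown, fell by 1.39 with CoCl2 (adjusted p = 1.52e-31).

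Of 16 tested genes of aspartate, glutamate, glutamine and proline metabolism (17 listed), 1 rose and 6 fell with CoCl2, with a median of -0.90, and 1 rose with OD, with a median of 3e-04. Of all tested genes, 19.9% rose and 23.4% fell with CoCl2 and 9.09% rose with OD, so that 1 of 16 is no more than the background. GLUL, glutamine synthetase, rose 3.28-fold with CoCl2 (log2 fold change 1.72, SE 0.044, adjusted p = 1.03e-41). With library size alone its log2 fold change was 1.21 (adjusted p = 1.1e-29). PYCR3 and PYCR1, which complete proline synthesis, fell by 3.54 and 1.92 on the log2 scale with CoCl2 (adjusted p = 5.05e-29 and 5.24e-39). Exons of other genes overlap 29.7% of the exon bases of PYCR1, and 14.1% are shared on the same strand. PRODH, which breaks proline down, was called in opposite directions by the treatments, from 7.75 ± 0.63 CPM in controls to 1.64 ± 0.21 under CoCl2 (log2 fold change -2.22, adjusted p = 1.72e-20) and 21.8 ± 0.69 under OD (1.49, adjusted p = 2.42e-23).

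With library size alone, the genes called lower with CoCl2 became 4 in the methionine list and 12 in that of aspartate, glutamate and proline, where 36.6% of all tested genes were called lower.

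De novo purine synthesis, which uses formyl-folate, was measured by 6 genes, all tested. With CoCl2 3 fell, and with OD 2 fell, at medians of -0.89 and -0.72, beside 23.4% and 4.16% of all tested genes that fell. PFAS fell by 2.20 with CoCl2 (SE 0.078, adjusted p = 1.72e-35). ADSL fell by 1.58 with CoCl2 and by 1.17 with OD (adjusted p = 1.15e-19 and 6.3e-16), and ATIC, which takes up a formyl unit in the last steps, by 1.21 and 1.02 (adjusted p = 1.35e-36 and 2.67e-32). Of the exon bases of ADSL, 11.1% are shared with other genes on the same strand. The fall of ATIC with OD lay close to the fold threshold and was -0.98, no longer called, with library size alone. That scaling called 4 of the 6 purine genes lower with CoCl2 and 1 with OD, against 36.6% and 3.65% of all tested genes. The medians of the 6 were then -1.39 and -0.68.

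**Figure D4:**
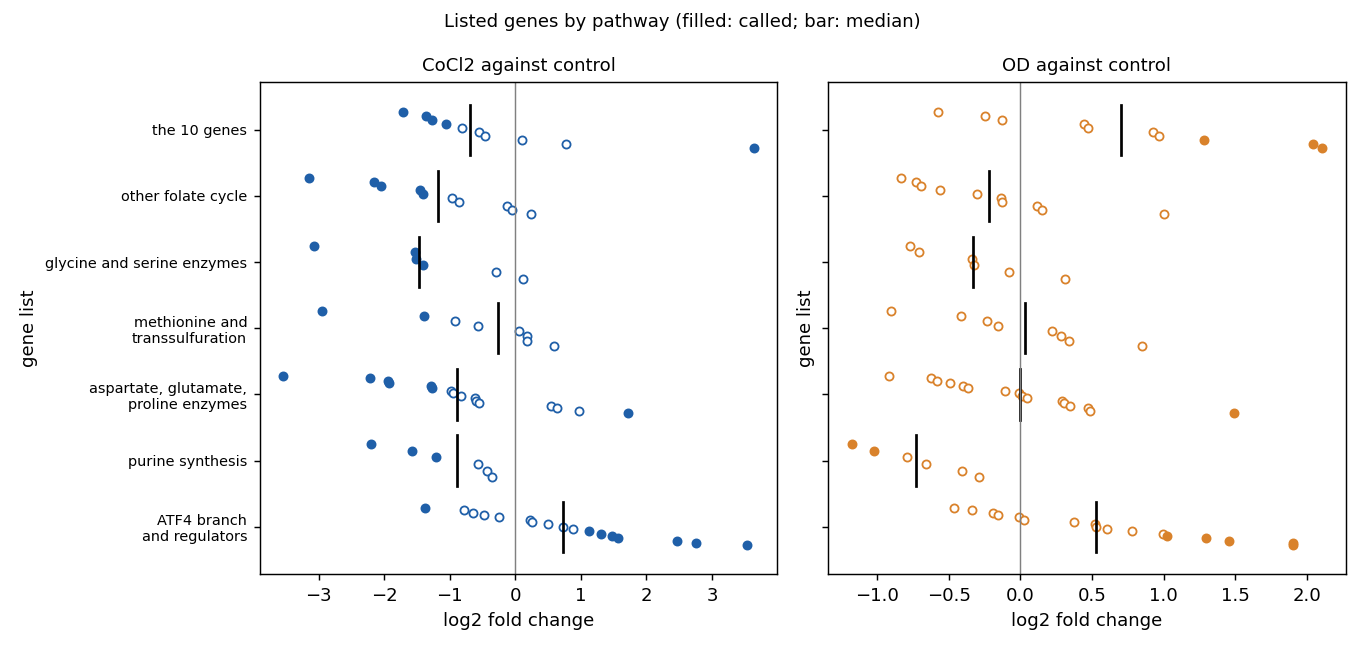
Log2 fold change (horizontal axes, which differ between panels) of the genes of each list (rows) for CoCl2 against control and OD against control. Filled points were called, open points were not, and the vertical bar is the median of a list. The folate, glycine, proline and purine lists lie mostly left of 0 with CoCl2, with medians of -1.19, -1.46, -0.90 and -0.89, and the ATF4 list mostly right, with a median of 0.73 (0.23 with library size alone). MTHFD2 with CoCl2, at 0.10 among the 10 genes, changes sign with library size alone.

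Of 17 genes of the ATF4 branch and other regulators, 7 rose and 1 fell with CoCl2, and 5 rose and none fell with OD, with medians of 0.73 and 0.53. Among all tested genes 19.9% rose and 23.4% fell with CoCl2, and 9.09% rose with OD. The CoCl2 split depended on the scaling, being 4 called higher and 3 lower at a median of 0.23 with library size alone, a scaling that called 11.5% of all genes higher and 36.6% lower. ATF4 itself had 402.8, 380.1 and 375.7 CPM in controls, 737, 670.1 and 720.1 under CoCl2 and 571.5, 543.1 and 545.8 under OD. Both treatments lay above control at log2 fold changes of 0.88 and 0.52 (adjusted p = 3.02e-29 and 8.09e-18), below the fold threshold, and with library size alone at 0.37 and 0.56. This is the level of its mRNA, and ATF4 is known to be controlled largely in translation.

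PPP1R15A, the phosphatase subunit that reverses eIF2 phosphorylation, rose by 3.53 on the log2 scale with CoCl2 and by 1.03 with OD (adjusted p = 4.24e-55 and 2.17e-27). SESN2, a sestrin induced by stress, rose by 2.75 and 1.46 (adjusted p = 7.03e-46 and 1.43e-28), and ATF3, a transcription factor downstream of ATF4, by 2.46 and 1.90 (adjusted p = 1.58e-45 and 3.05e-38). CHAC1, which degrades glutathione and is a known ATF4 target, was called with OD and not with CoCl2, as was ASNS. It had 10.2, 8.48 and 10.2 CPM in controls, 11.5, 12.9 and 10.2 under CoCl2 and 35.4, 38.2 and 33.5 under OD.

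CHAC1 rose 3.74-fold with OD (SE 0.082 on the log2 scale, adjusted p = 3.86e-30), and its log2 fold change with CoCl2 was 0.25 (adjusted p = 0.023, not called), or -0.26 with library size alone. Compared with OD, CoCl2 gave a log2 fold change of -1.65 (adjusted p = 8.91e-28). NFE2L2, the regulator of antioxidant genes, rose by 1.57 on the log2 scale with CoCl2 (adjusted p = 1.46e-41) and stood at 0.37 with OD (adjusted p = 2.08e-11, not called). With library size alone its CoCl2 value was 1.06 (adjusted p = 3.68e-27), just above the fold threshold. Exons of other genes overlap 38.4% of its exon bases, and 13.6% are shared on the same strand. MYC was not called with either treatment, at -0.78 and -0.34, but was called lower with CoCl2, at -1.28, with library size alone.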

How the data were processed

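Messenger RNA of uCaco-2 cells was measured in 9 poly(A)-selected, stranded, single-end libraries, 3 per condition, grouped by the labels. The authors checked reads with FastQC 0.11.9, trimmed them with cutadapt 2.10, mapped them to GRCh38 with STAR 2.7.5b and deposited raw counts per GENCODE gene symbol. The counting tool, its strand setting and its treatment of reads matching several genes are not given in the sources used here. No column of samples was left unused (0 columns).

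The expression filter of edgeR 4.0.16 (R 4.3.3) was applied to the counts, TMM factors were computed, and edgeR fitted a robust quasi-likelihood model with 1 mean per condition over the 9 libraries. Standard errors and 95% intervals come from this fit, and p-values were adjusted over all 15944 tested genes by the Benjamini-Hochberg method. The scripts were tested on simulated data. Depth was 15998136 to 24209427 counts per library, and pairs of replicates of a condition differed beyond sampling noise (chi-square per degree of freedom 1.82 to 3.32). That tells them from repeated sequencing of 1 library but cannot show that they come from separate cultures. All 9 were counted as separate, as the study names 3 biological replicates per condition.

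The 10 genes and the pathway lists were chosen with earlier results of these data known. All 10 genes are named, and from each list the largest called changes, with paralogs and partners (MTHFD2L, CBS, ATF4, SLC25A32). MYC, CHAC1 with CoCl2, and the pathway counts and some single values with library size alone were added after the values were seen. For 1 listed gene, single values are left out here. Coordinates and exon overlaps came from GENCODE release 44, later than the release of the counting, and promoter windows from RefSeq. Alternatives were DESeq2 1.42.0 on 9 or 6 libraries, each comparison on its own 6 libraries, RLE factors, unscaled library sizes, a table with no filter or with a minimum of 10 counts per library, thinning to the smallest library, glmTreat, the adjusted p alone, the replicate number as a block and each library left out in turn.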

Additional observations from a re-analysis of the deposited data

How the results depend on the processing

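The counts of called members did not move beyond 1.5 times under DESeq2 on 9 or 6 libraries, RLE factors, library size alone, 6 libraries per comparison, either count filter, thinning, glmTreat or a library left out. Without the fold threshold they became 3 higher and 7 lower with CoCl2 and 7 higher and 3 lower with OD. Of single values, the CoCl2 change of MTHFD2 reversed to -0.41 with library size alone, a scaling that also moved the median of all genes. PSPH with CoCl2 lost its call under glmTreat (adjusted p = 0.155). PHGDH with OD passed the fold threshold with library size alone (1.01) and without control replicate 1 (1.01).

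Ratios of counts that differed little between CoCl2 and OD changed sign when 1 library was left out, ranging from -0.016 to 0.047 for MTHFD1L over MTHFD1 (log2), from -0.069 to 0.008 for MTHFD2 over MTHFD1 and from -0.023 to 0.14 for ASNS over PHGDH. The replicate numbers were not found to pair the samples, with correlations of deviations of -0.018 to 0.067 for equal numbers and -0.069 to 0.062 for different numbers. With the replicate block, 1 gene was called higher and 4 lower with CoCl2, 3 and 0 with OD, and 1 and 9 for CoCl2 against OD, and the log2 fold change of CTH with CoCl2 was 3.63.

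Low counts limit ASNS most. Its 14 to 34 counts in control and CoCl2 libraries gave a standard error of 0.26 with CoCl2, against 0.041 to 0.091 for the other 9 genes against control. The part of the exon overlap described above in these low counts was not tested.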
